A study of Homo sapiens with 4 samples.

Results

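Interferon-stimulated genes outside the GBP, IFIT, OAS, IRF and chemokine families were described in wild type and EED-knockout Daoy cells. The set was a named list of 40 genes, taken from the 58174 genes in the deposited tables by symbol, and all 40 passed the filter on low counts among 18349 genes tested. Daoy is an established human medulloblastoma cell line. Total RNA was sequenced from 2 wild type and 2 EED-knockout libraries, here called wild type 1 and 2 and knockout 1 and 2. EED belongs to the core of Polycomb repressive complex 2, which places the silencing mark H3K27me3. All 4 libraries share the parent line, and the labels name no drug, interferon treatment, time point, guide or clone. Nor do they tell if libraries of 1 genotype came from separate cultures, so every p-value rests on the spread among these 4 libraries alone, and that spread may be technical.

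Type I interferons bind a receptor of the chains IFNAR1 and IFNAR2, which activates the kinases JAK1 and TYK2. A transcription factor complex that holds STAT2 and IRF9 then binds the interferon-stimulated response element upstream of its target genes. The products of these genes block virus entry, sense or edit foreign RNA, and attach the ubiquitin-like protein ISG15 to other proteins. Some are also made at a basal level in cells that have met no virus.

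The totals of the libraries ranged from 17836112 to 19106382 estimated counts, so counts of a gene can be read side by side to within that range. For EED itself, counts were 626 and 500 in wild type against 340 and 490 in knockout libraries (log2 fold change -0.49, adjusted p = 0.878, edgeR). Wild type 2 and knockout 2 were nearly even, and the position of the lesion is not stated in the labels. Of the 10 markers fixed for medulloblastoma and granule neuron progenitors, ATOH1 had 0 counts in all 4 libraries, NEUROD1 had 0 to 5 and BARHL1 1 to 8. The others were present, with ZIC1 at 356 to 605, ZIC2 at 330 to 550, PAX6 at 311 to 383 and GLI2 at 394 to 619. MEIS1 had 89 to 171 counts, NES 68 to 145 and VIM 67897 to 78632. The 10 leukocyte markers summed to 31.5 and 53.6 CPM (counts scaled to a common library total) in wild type against 44.8 and 37.0 in knockout libraries, with CD3E at 0 in all libraries and PTPRC at 0 to 10 counts. Most of that sum came from CD68 and CSF1R. CD68 had 400 and 721 counts in wild type against 763 and 570 in knockout libraries. CSF1R had 175 and 200 against 36 and 67 (log2 fold change -1.92, adjusted p = 0.670 in edgeR and 0.0168 in DESeq2). The 4 endothelial markers summed to 97.8 CPM in knockout 1 against 1.21 to 5.49 in the other libraries, nearly all of it from KDR with 1782 counts. The 5 fibroblast markers summed to 2308 and 3664 CPM in wild type against 3795 and 3420 in knockout libraries, most of it from COL1A1 at 34953 to 56630 counts. Single markers did not all follow that sum. COL1A2 was lowest in knockout 2, at 5240 counts against 8607 to 16141 elsewhere, as was PDGFRB at 172 against 460 to 693. PDGFRA was highest in knockout 1, at 153 against 49 to 63, and DCN had 8 to 23. The 4 markers of plasmacytoid dendritic cells summed to 8.64 to 11.8 CPM in every library.

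The response element has a core of GAAA, any 2 bases and GAAA, and both strands of the promoters of these genes were searched for it, overlapping matches included. Promoter windows of 300 bases, from 250 before to 50 after an annotated start, were available from RefSeq (GRCh38.p14) for 35 of the 40 genes. The core was present in 24 of these 35 genes (68.6%), against 4.38% of the 27305 genes with a window and 3.57% of the 35116 windows. Genes with more than 1 annotated start had more than 1 window, and a match in any of them was counted. MX2, IFITM2, USP18, TRIM22 and LAMP3 were not in the table used. The 11 genes with a window and no match were CMPK2, SAMD9L, UBE2L6, HERC6, TRIM25, IFI16, IFI35, ADAR, SP100, SP110 and XAF1. A match describes letters in a window, and no binding was measured.

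The stretches that hold the core are shown for 11 genes whose levels are described below, on the strand of the gene and 5′ to 3′, with the core, or its reverse complement (TTTC, any 2 bases and TTTC), in capitals. Of these genes, ISG15, BST2, HERC5, IFI44L, DDX60, IFITM1 and IFITM3 held more than 1 match, and for IFI44L the stretch nearer to the start is shown (its other match lies at 78620284 to 78620293 on chromosome 1).
ISG15, chr1:1013379-1013404, plus strand: ctcggGAAAGGGAAACCGAAActgaa
BST2, chr19:17405738-17405766, minus strand: ttctggGAAACTGAAACTGAAAacctaat
HERC5, chr4:88456988-88457059, plus strand: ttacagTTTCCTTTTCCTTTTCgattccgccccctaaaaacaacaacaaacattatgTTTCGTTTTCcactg
ISG20, chr15:88638940-88638963, plus strand: caaactaGAAACTGAAAcagggtc
RSAD2, chr2:6877625-6877648, plus strand: tttcaacTTTCAGTTTCacatgtg
IFI44L, chr1:78620368-78620391, plus strand: tagtgagGAAAAAGAAAgttagtg
DDX60, chr4:168318791-168318846, minus strand: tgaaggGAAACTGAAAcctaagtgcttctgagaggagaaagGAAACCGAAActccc
IFITM1, chr11:313994-314045, plus strand: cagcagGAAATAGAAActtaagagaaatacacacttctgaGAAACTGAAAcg
IFITM3, chr11:320881-320918, minus strand: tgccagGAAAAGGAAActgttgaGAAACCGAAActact
DTX3L, chr3:122564312-122564343, plus strand: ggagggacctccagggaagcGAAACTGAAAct
LGALS3BP, chr17:78979965-78979988, minus strand: gtttctgGAAATCGAAAgtagact
The match of DTX3L, at 122564332 to 122564341 on chromosome 3, was also the match of its divergent neighbour PARP9, whose annotated start is at 122564300 against 122564338 for DTX3L, so 1 stretch served both windows.

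**Figure D1:**
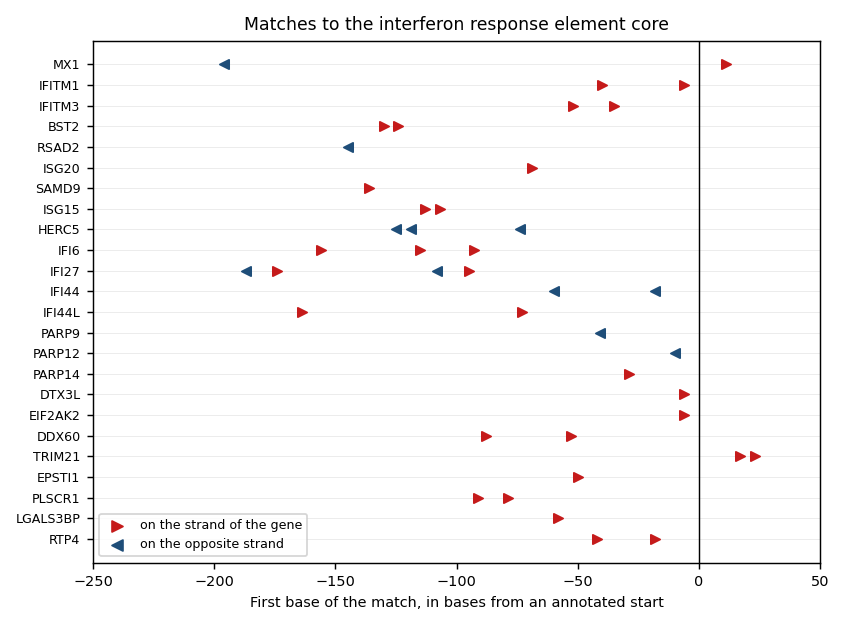
Position of each match to the response element core (horizontal axis, first base of the match in bases from an annotated start) in the 24 genes that held one (rows). Triangles point right for a match on the strand of the gene and left for the opposite strand, and nearly all matches lay before the start.

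Across the 40 genes the levels were mostly lower in knockout libraries, and knockout 1 carried most of that difference. The log2 fold change of knockout over wild type was negative in 35 of 40 genes, against 49.1% of all genes tested, with a median of -0.47 against 0.01 over all genes. No member passed edgeR's test over all genes (smallest adjusted p = 0.799), and no gene of the whole table did (0.0% of 18349). DESeq2 called 0.4% of the genes to which it gave an adjusted p, and 0 of the 40. With p under 0.05 before adjustment, 6 members were lower and 0 higher in edgeR, where 3.05% of all genes were lower and 2.85% higher. Both knockout libraries lay below both wild type libraries in 13 members and above them in 2, against 18.0% and 17.8% of all genes. These orders are on the log2 CPM scale. In TPM, which also divides by transcript length, the genotypes overlapped for MX1, IFI6, IFI16 and EPSTI1 of the 13 and for TRIM25 of the 2. PLSCR1 of the 13 was higher in both knockout libraries in TPM.

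The libraries of a genotype differed among themselves. Knockout 1 lay below knockout 2 in 33 of 40 genes, against 50.2% of all genes. It was the lowest of the 4 libraries in 32, against 31.0% of all genes, and knockout 2 was the lowest in 4, against 25.8%. Knockout 1 lay below both wild type libraries in 34 members (38.7% of all genes) and knockout 2 in 15 (36.1% of all genes). The median difference from the wild type mean was -0.77 on the log2 scale in knockout 1 and -0.05 in knockout 2. Wild type 2 was the highest library in 21 of the 40 genes and exceeded wild type 1 by a median of 0.19. Without knockout 1 the median log2 fold change of the members was -0.06 and 24 were negative, and without knockout 2 it was -0.78 with 36 negative, and edgeR called 3 members lower (HERC5, IFITM1 and ISG15) and 46 genes lower in the whole table. Without wild type 2 it was -0.30 with 28 negative, and without wild type 1 it was -0.52 with 35 negative. Knockout 1 was also the library with the high endothelial marker sum, which came almost wholly from KDR (1782 counts against 7 to 34 elsewhere). CDH5 was highest there too, at 42 counts, but PECAM1 and VWF were highest in wild type libraries. The part of KDR or of these markers in the result was not tested.

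**Figure D2:**
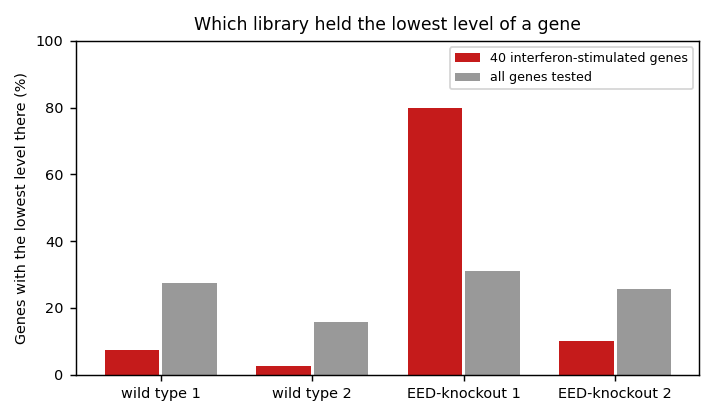
Share of genes (vertical axis, percent) that had their lowest level in each of the 4 libraries, for the 40 interferon-stimulated genes (red) and all genes tested (grey). Knockout 1 held the lowest level in 32 of the 40 genes.

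Genes that block virus entry or replication came first. All 11 had a negative log2 fold change, with a median of -0.69, and 4 of them had an unadjusted p under 0.05. BST2, also called tetherin, which holds budding virions to the cell surface (chromosome 19, 17402939 to 17405648, GRCh38), stood at 45 and 99 counts in wild type, with 8 and 27 in knockout 1 and 2. Both knockout libraries were below both wild type libraries, although wild type 2 held more than wild type 1 by 1.11 on the log2 scale. Its level was 3.95 ± 2.26 CPM in wild type against 0.954 ± 0.754 CPM in knockout libraries (SD, n = 2 each). The log2 fold change of -2.09 (95% interval -3.74 to -0.43) was the most negative of the 40 (edgeR adjusted p = 0.799), and it was -1.45 without knockout 1, -1.40 without wild type 2 and -3.22 without knockout 2.

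ISG20, an exonuclease that degrades single-stranded RNA (chromosome 15, 88636153 to 88656483), gave 187 and 201 wild type counts against 106 and 105 knockout counts. Here the replicates of each genotype were alike and the genotypes did not overlap, a pattern unlike that of most members. Its log2 fold change was -0.93 (95% interval -1.62 to -0.25; edgeR adjusted p = 0.799), and it lay between -0.88 and -0.99 whichever library was left out. TPM values, which also divide by transcript length, were 26.2 and 23.5 in wild type against 7.73 and 8.84 in knockout libraries, and the log2 fold change was -1.69 with counts rebuilt from TPM.

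MX1 and MX2 are dynamin-like GTPases that trap viral nucleocapsids and lie 10.9 kb apart on chromosome 21. MX1 had 1042 and 1164 counts in wild type against 939 and 743 in knockout libraries, and MX2 had 433 and 437 against 337 and 262. For both genes knockout 2, not knockout 1, was the lowest library, and the genotypes did not overlap in counts. In TPM they overlapped for MX1, with knockout 1 at 36.9 between the wild type libraries at 33.4 and 46.2. MX2 had a log2 fold change of -0.60 (95% interval -1.16 to -0.03; edgeR adjusted p = 0.826).

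SAMD9 and SAMD9L restrict poxviruses and lie next to each other on chromosome 7, 12.0 kb apart. SAMD9L stood at 584 and 712 counts in wild type, with 333 and 503 in knockout 1 and 2, which did not overlap, at a log2 fold change of -0.69 (95% interval -1.33 to -0.04; edgeR adjusted p = 0.823). It was -0.41 without knockout 1. SAMD9 had 911 and 1346 counts against 596 and 980, so that knockout 2 lay between the wild type libraries in count.

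RSAD2, also called viperin, makes a chain-terminating nucleotide from the substrate that its neighbour CMPK2, a nucleotide kinase, supplies. The gene gave 249 and 898 wild type counts against 37 and 557 knockout counts, and CMPK2 had 228 and 495 against 85 and 372. The order was the same in both genes, with wild type 2 highest, then knockout 2, wild type 1 and knockout 1, so the spread within each genotype was larger than the difference between them. RSAD2 had a log2 fold change of -0.999 (95% interval -3.49 to 1.49; edgeR adjusted p = 0.934), which became 0.21 on leaving out wild type 2, -0.08 on leaving out knockout 1 and -4.02 on leaving out knockout 2. The genes overlap by 830 bases on opposite strands, and the labels do not state if the libraries mark strand.

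The IFITM proteins stop virus fusion at the membrane. IFITM3 had 1018 and 982 counts in wild type against 645 and 1080 in knockout libraries, and IFITM2 had 215 and 138 against 131 and 145. IFITM1 had 57 and 64 counts in wild type, 0 in knockout 1 and 65 in knockout 2, so its difference rested on 1 library. A count of 0 there allows up to 0.158 CPM, counting error only. The log2 fold change of IFITM1 was -0.94 (95% interval -3.99 to 2.10; edgeR adjusted p = 0.950), it was 0.06 without knockout 1, and without knockout 2 it was -8.94 (adjusted p = 0.0304), a size set by the 0 and the prior count. IFITM1 and IFITM2 overlap by 1767 bases on the same strand and are close in sequence, so the division of fragments between them is uncertain.

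**Figure D3:**
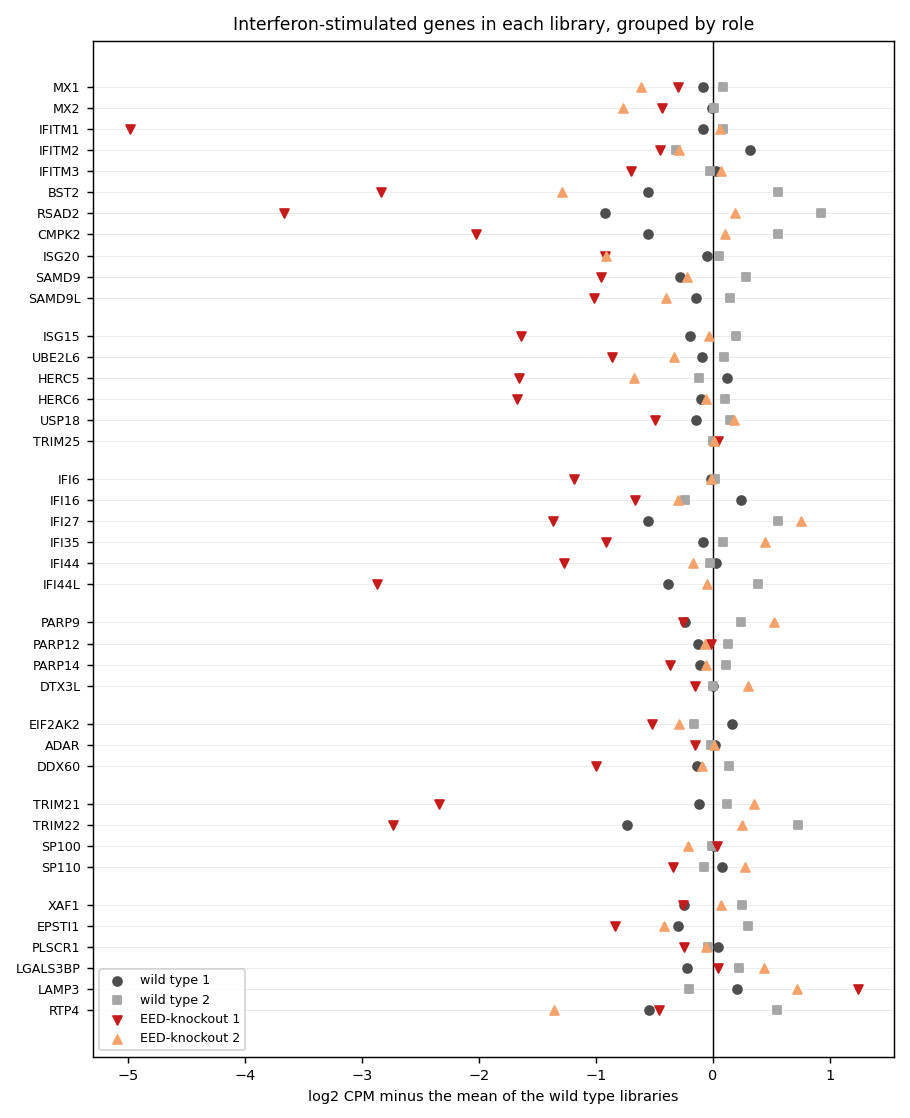
Level of each of the 40 genes in each library (horizontal axis, log2 CPM with a prior count of 2, minus the mean of the wild type libraries), with genes in rows grouped by role. Knockout 1 (red, pointing down) lies farthest left for 32 genes, and the leftmost point, IFITM1 in knockout 1, stands for a count of 0.

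ISG15 conjugation uses an activating enzyme, the conjugating enzyme UBE2L6, ligases such as HERC5 and TRIM25, and the protease USP18, which removes ISG15. In this group 5 of 6 genes had a negative log2 fold change, and 2 had an unadjusted p under 0.05. ISG15 itself had 1474 and 1922 counts in wild type, 563 in knockout 1 and 1696 in knockout 2. Only knockout 1 was low, and knockout 2 lay between the wild type libraries. The log2 fold change of ISG15 was -0.64 (95% interval -1.75 to 0.47; edgeR adjusted p = 0.895), which was -0.04 without knockout 1 and -1.66 without knockout 2 (adjusted p = 0.0450).

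HERC5, the main ligase for ISG15 in human cells (chromosome 4, 88457117 to 88506163), stood at 900 and 758 counts in wild type, with 273 and 532 in knockout 1 and 2. Both knockout libraries were below both wild type libraries, at 21.8 ± 10.6 CPM against 44.8 ± 3.26 CPM (SD, n = 2 each). Its log2 fold change was -1.10 (95% interval -1.89 to -0.31), with an adjusted p of 0.799 in edgeR and 0.187 in DESeq2. That value was -0.68 without knockout 1, and without knockout 2 it was -1.67 (edgeR adjusted p = 0.0450).

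HERC6, its paralogue 14.0 kb away, had 355 and 406 counts in wild type, 123 in knockout 1 and 377 in knockout 2. UBE2L6 had 980 and 1106 counts against 599 and 852, at a log2 fold change of -0.58 (95% interval -1.14 to -0.02; edgeR adjusted p = 0.834), which was -0.33 without knockout 1. HERC6 thus followed ISG15 in being low in knockout 1 alone, while UBE2L6 was lower in both knockout libraries. USP18 gave 347 and 422 wild type counts against 284 and 447 knockout counts. TRIM25, a ubiquitin ligase for the RNA sensor RIG-I, had 1295 and 1289 against 1395 and 1345, all within a narrow range.

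All 6 genes named IFI had their lowest level in knockout 1. Per length, IFI44 had the highest mean level of the 40 over the 4 libraries, although LGALS3BP was above it in knockout 1 at 240 TPM. IFI44 stood at 394 and 429 TPM in wild type and 203 and 355 TPM in knockout libraries. Its counts were 4394 and 4237 in wild type, 1862 in knockout 1 and 3963 in knockout 2. IFI44L, its paralogue 3.65 kb upstream, stood far lower, at 1.23 to 9.67 TPM, and had 133 and 227 counts in wild type, 23 in knockout 1 and 173 in knockout 2. Knockout 2 lay close to wild type in both genes, and knockout 1 was the library that stood apart.

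IFI6, a mitochondrial and endoplasmic reticulum protein that limits flavivirus replication, had 134 and 136 counts in wild type, 61 in knockout 1 and 138 in knockout 2, which falls just below wild type once scaled by TMM factors, but in TPM knockout 2 was the highest library at 17.2 TPM. IFI16, a nuclear DNA sensor, had 2539 and 1811 counts in wild type against 1412 and 1800 in knockout libraries. In TPM knockout 2, at 66.1, lay above wild type 2, at 63.3. IFI35 had 175 and 197 against 102 and 261. IFI27, a mitochondrial protein used widely as a marker of interferon response, stood at 47 and 103 counts in wild type, with 27 and 123 in knockout 1 and 2, so knockout 2 held the highest level of it and knockout 1 the lowest.

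The ADP-ribosylation genes had the median nearest to 0 of all the groups. PARP9 and the ubiquitin ligase DTX3L form a complex and are transcribed in opposite directions from a shared promoter region, with annotated gene bodies that overlap by 340 bases. PARP9 gave 485 and 670 wild type counts against 500 and 847 knockout counts, and DTX3L had 1213 and 1201 against 1137 and 1537. Knockout 2 was the highest library for both. PARP14, an antiviral ADP-ribosyltransferase, had 2175 and 2526 counts against 1897 and 2325, and PARP12 had 692 and 826 against 783 and 745. The median log2 fold change of the 4 genes was 0.02, and in none of them did the genotypes separate.

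Among genes whose products bind or edit RNA, EIF2AK2, the kinase PKR that halts translation on double-stranded RNA, had 2918 and 2312 counts in wild type against 1892 and 2195 in knockout libraries. The genotypes did not overlap, but wild type 1 was farther from wild type 2 than knockout 2 was. DDX60, a helicase linked to RIG-I signalling, had 506 and 607 counts in wild type, 289 in knockout 1 and 537 in knockout 2. ADAR, which converts adenosine to inosine in double-stranded RNA, had 8073 and 7839 counts against 7491 and 8282, a narrow range over the 4 libraries.

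TRIM21, an intracellular antibody receptor, had 185 and 219 counts in wild type, 40 in knockout 1 and 266 in knockout 2. TRIM22, a restriction factor on the same chromosome, had 29 and 83 counts in wild type, 6 in knockout 1 and 61 in knockout 2. In both genes knockout 1 was the lowest library and knockout 2 lay within or above the wild type values. TRIM22 overlaps TRIM5, which is on the opposite strand. SP100, a scaffold of nuclear bodies, had 1012 and 992 counts against 1075 and 894, and its relative SP110 had 445 and 398 against 347 and 527.

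Of the 6 remaining genes, 4 had a negative log2 fold change and 2 a positive one. LAMP3, a lysosomal membrane protein of mature dendritic cells (chromosome 3, 183122213 to 183163839), stood at 34 and 25 counts in wild type, with 75 and 51 in knockout 1 and 2. On the log2 CPM scale the knockout libraries were higher than either wild type library in LAMP3 and TRIM25, which no other member showed. In TPM the genotypes overlapped for TRIM25, at 27.0 and 34.2 in wild type against 36.3 and 28.7 in knockout libraries. The log2 fold change of LAMP3, 1.03 (95% interval -0.05 to 2.12, edgeR adjusted p = 0.851), was the highest of the 40. RTP4, a chaperone of G protein-coupled receptors, gave 44 and 96 wild type counts against 49 and 25 knockout counts. The genotypes overlapped for RTP4, whose log2 fold change of -0.98 (95% interval -2.30 to 0.35; edgeR adjusted p = 0.881) was -0.31 when wild type 2 was left out, -0.58 when knockout 2 was and -1.52 when knockout 1 was.

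LGALS3BP, a secreted glycoprotein and after IFI44 the gene with the highest mean level per length, had 4773 and 6503 counts in wild type against 6025 and 7775 in knockout libraries. XAF1, an antagonist of the apoptosis inhibitor XIAP, had 245 and 345 against 255 and 315. EPSTI1 stood at 37 and 57 counts in wild type, with 26 and 35 in knockout 1 and 2, which did not overlap. In TPM both knockout libraries, at 1.34 and 1.81, lay between the wild type libraries, at 1.14 and 2.03. PLSCR1, a membrane scramblase, had 926 and 868 against 790 and 887, nearly even over the 4 libraries. Scaled by TMM factors its knockout counts lay just below wild type, while its TPM values lay just above, at 65.5 and 67.7 against 62.6 and 64.0, so its direction depends on the scale.

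**Figure D4:**
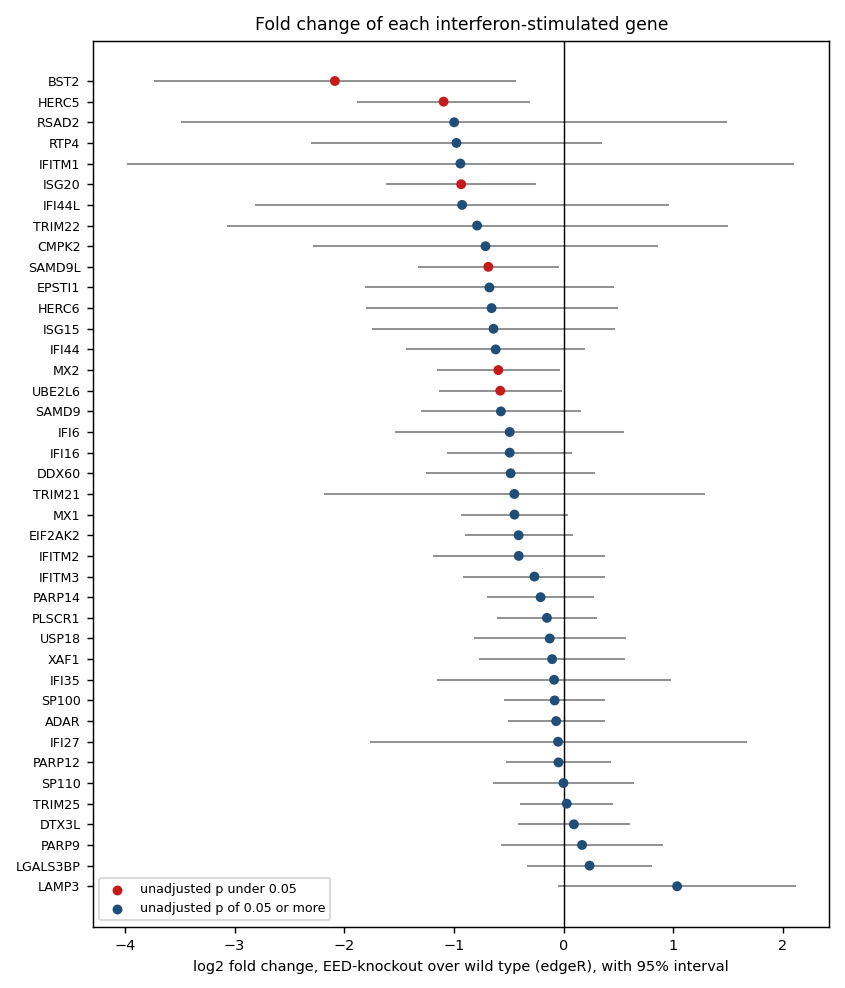
Log2 fold change of EED-knockout over wild type for each of the 40 genes (points) with its 95% interval (lines), from edgeR. Red marks the 6 genes with an unadjusted p under 0.05 (BST2, HERC5, ISG20, SAMD9L, MX2 and UBE2L6), and 35 points lie left of 0.

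The genes that carry the response element core and those that do not were set side by side as a description. Among the 24 genes with a match, 21 had a negative log2 fold change, with a median of -0.49, and knockout 1 was the lowest library in 20. Among the 11 without one, 10 were negative, with a median of -0.11, and knockout 1 was the lowest library in 9. Over all genes tested 49.1% were negative and knockout 1 was the lowest library in 31.0%. As shares of their groups, the counts of negative genes and of genes lowest in knockout 1 were alike with and without a match. The medians were not tested against each other, and genes outside the list that hold the core were not compared. LGALS3BP, DTX3L and PARP9 held a match and had positive values, so a match did not go with a lower level in every gene.

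Transcripts of the members were then compared. Of 343 transcripts listed, 139 were tested among 56858, and none passed edgeR's test (smallest adjusted p = 0.823, 0.0% called over all transcripts). At an unadjusted p under 0.05 edgeR found 8 lower and 1 higher, where 2.43% and 2.21% of all transcripts were. ADAR makes a long form from an interferon-inducible promoter and a short form that is made constitutively. ADAR-001, with 3678 coding bases in GENCODE 29, had 4219 and 4234 estimated counts in wild type, 3218 in knockout 1 and 4486 in knockout 2. ADAR-002, with 2793 coding bases, had 3224 and 2901 in wild type, 3561 in knockout 1 and 2854 in knockout 2. Of the sum of these transcripts, ADAR-001 was 56.7% and 59.3% in wild type, 47.5% in knockout 1 and 61.1% in knockout 2. A further coding transcript, ADAR-007, had 361 and 391 in wild type, 433 in knockout 1 and 644 in knockout 2. Its deposited length of 3585 bases is below the 3600 coding bases of that identifier in GENCODE 29. ADAR-007 was therefore not assigned to the long or the short form. ADAR-002 exceeded ADAR-001 in knockout 1 alone, but not ADAR-001 and ADAR-007 added together. ADAR-001 and ADAR-002 did not pass (unadjusted p = 0.439 and 0.975 in edgeR), and the transcripts differ in length between the deposited tables and GENCODE 29, so the coding lengths were matched by identifier alone.

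Estimated counts of HERC5 transcripts were read in the same way. HERC5-001, with 3072 coding bases, had 783 and 653 estimated counts in wild type against 167 and 420 in knockout libraries (log2 fold change -1.35, unadjusted p = 0.0486 in edgeR). HERC5-002, with 1986 coding bases, had 112, 102, 104 and 112 in the same order, so the difference in the gene lay in the longer transcript. The retained-intron transcript PLSCR1-013, chosen after its values were seen, had 0 counts in wild type 1 and wild type 2. In knockout libraries it had 48.4 and 27.0 counts (adjusted p = 0.823 in edgeR). The knockout mean was 12.4-fold above the wild type floor of 3 counts in each library, which covers counting error only. Such a 0 can also come from the division of fragments among transcripts, since PLSCR1-003 had 48.7 and 0 within wild type. In the same gene PLSCR1-008, a transcript subject to nonsense-mediated decay and likewise chosen after its values were seen, had 60.1 and 63.2 counts in wild type against 17.9 and 9.38 in knockout libraries (log2 fold change -2.24, unadjusted p = 0.0164 in edgeR). Kallisto divides fragments among transcripts that share exons by a model, so these values are less certain than those of whole genes.

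**Figure D5:**
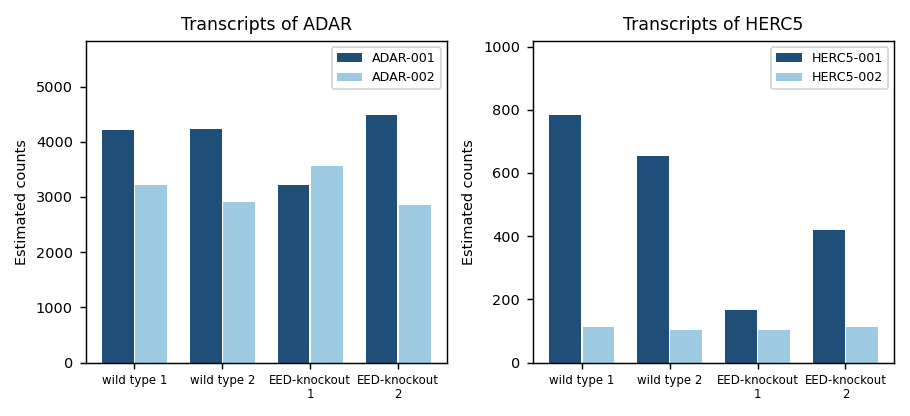
Estimated counts (vertical axes, from 0) of ADAR-001 and ADAR-002 (left) and of HERC5-001 and HERC5-002 (right) in each of the 4 libraries. ADAR-001 exceeds ADAR-002 except in knockout 1, and HERC5-002 stays between 102 and 112 while HERC5-001 is lower in both knockout libraries.

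The genes of the pathway upstream were examined from a list of 26, of which 18 were tested. Of these, 0 were called by edgeR (smallest adjusted p = 0.826) or DESeq2, and their median log2 fold change was -0.05, with 10 negative and 8 positive. At an unadjusted p under 0.05 edgeR found 1 lower and 0 higher, where 3.05% of all genes were lower and 2.85% higher. The ligands IFNB1, IFNE, IFNK, IFNL2 and IFNG were at 0 counts in every library, and the least deep library would allow up to 0.168 CPM for such a count. IFNL1 had 1 to 3 counts, and IFNL3 had 2 in knockout 1 and 0 elsewhere. No interferon transcript on the list was therefore measured above 3 counts in any library, wild type included.

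Receptors and signalling genes were present in every library. IFNAR1 gave 1801 and 1352 wild type counts against 1287 and 1078 knockout counts, and IFNAR2 had 496 and 428 against 495 and 323. IFNGR2, a chain of the interferon gamma receptor, had 2166 and 1942 against 1700 and 1217 and was the 1 gene with an unadjusted p under 0.05. For IFNAR1, IFNAR2, IFNGR2 and STAT2 knockout 2 was the lower knockout library, unlike in most interferon-stimulated genes, while IRF9 was lower in knockout 1. Over the 18 pathway genes tested, knockout 1 lay below knockout 2 in 8 (44.4%), against 50.2% of all genes, so the list as a whole had no clear order. STAT2 had 1103 and 1265 counts in wild type against 1263 and 805 in knockout libraries. IRF9 had 185 and 341 against 251 and 332. The genotypes overlapped for both of these transcription factors.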

How the data were processed

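RNA-seq was compared between 2 wild type and 2 EED-knockout libraries of Daoy cells, grouped by the labels. The authors deposited estimated counts and TPM values per transcript, per the file headers. The submitters' processing notes name kallisto 0.43.1 and hg38. The GENCODE release of the index is not stated there. The authors' deposited tables also give effective lengths, with medians of 535 and 540 bases for wild type against 515 and 515 for knockout. The part of that difference in the results was not tested beyond the fits on TPM.

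Counts were summed per gene over 199324 transcripts and rounded. edgeR 4.0.16 in R 4.3.3 (quasi-likelihood F test, TMM, filterByExpr with minimum count 10 and total 15, no covariate) was fitted to all genes, with Benjamini-Hochberg adjustment and a threshold of 0.05, two-sided. Intervals are 95% limits from the same test. Orders of libraries use log2 CPM (TMM, prior count 2). The floor for a count of 0 was 3 counts (0.157 to 0.168 CPM). Floors cover counting error only. Alternatives were RLE factors, no filter, DESeq2 1.42.0, a replicate block, counts rebuilt from TPM, limma 3.58.1 on log2(TPM + 1) and log2(TPM + 0.1), and leaving out each library. Tests were checked on simulated data. Coordinates are from GENCODE 29 (GRCh38) and promoter sequences from RefSeq.

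The members and lists were chosen with earlier results of these data known. Every member is given, with full statistics for the 6 with the largest absolute log2 fold change. Statistics of ISG15, ISG20, SAMD9L, MX2 and UBE2L6 were added after their values were seen. A gene of the pathway list is not reported here.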

Additional observations from a re-analysis of the deposited data

How the results depend on the processing

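Over all genes DESeq2 called 35 higher and 44 lower where edgeR called 0 and 0, and leaving out each library in turn gave 0 to 49 higher and 0 to 54 lower. Members called were 0 higher in every fit and 0 to 3 lower when a library was left out, the 3 being HERC5, IFITM1 and ISG15 without knockout 2. Of the pathway genes, 0 were called in each fit planned. The median log2 fold change of the members was negative in each of them, from -0.78 without knockout 2 to -0.06 without knockout 1, and -0.31 on both TPM scales, where 29 of 40 were negative. With counts rebuilt from TPM 33 were negative. The log2 fold change of RSAD2 ran from -4.02 to 0.21 and that of IFITM1 from -8.94 to 0.064 when a library was left out. Each such fit has 1 genotype with a single library, whose spread was taken from the other. Libraries with the same replicate number did not deviate together (r = -0.14 across genes), and the labels do not say that a number marks a shared culture. With the replicate block edgeR called 0 genes, 0 members and 0 transcripts, the members at an unadjusted p under 0.05 went from 6 to 10, and their median was -0.52. With the pairing crossed, a choice made after seeing the data, it called 0 genes and 0 members. Depth limits the genes with few counts, since a count of 0 allows 0.157 to 0.168 CPM.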
